A study of Rattus norvegicus and Ovis aries with 113 samples.

Results

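Neutrophil-associated genes were described across sperm, ovary and brain libraries of sheep and rats. The 9 genes were taken by symbol from the deposited count tables: S100A8, S100A9, S100A12, CXCR1, CXCR2, CSF3R, IL1B, IL1RN and FPR1. Of these, 6 were found by symbol among 31304 sheep genes, namely S100A8, S100A9, CXCR2, CSF3R, IL1B and IL1RN. In the rat table of 38675 genes 8 were found, all but S100A12. They had been chosen for their levels in sperm, ovary and brain libraries, so those levels are a description. Counts of these genes called in sperm or ovary against brain are printed only beside the share of all genes called, and nothing is read from them. What is tested for these genes is the difference among sheep brain regions, the difference between the sexes in rat brain, and covariation among rat libraries. Other genes known in neutrophils were compared in sperm and ovary against brain. Their lists were chosen with earlier results of these data known, so the counts called are a description and not independent evidence.

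The study measured RNA in nervous and reproductive tissue of 5 post-pubertal male sheep (687, 688, 690, 694 and 699), 15 post-pubertal male rats and 14 female rats. From each sheep came 1 sperm library and 10 brain regions of 1 hemisphere. These were pons, hippocampus (Hip), cerebellum (CB), basal ganglia (BG), and 6 cortical areas: visual (VC), motor (MC), posterior parietal (PPC), entorhinal (EC), frontal (FC) and prefrontal (PC). The rats were Sprague Dawley animals, from which whole brain and seminal fluid of males, and whole brain and ovaries of females, were harvested after euthanasia. No group received a treatment. No step to isolate or remove a cell type is given in the sources used here. The sperm libraries are therefore treated as semen or seminal fluid that may hold other cells, and whether sperm were purified cannot be told.

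Neutrophils are short-lived phagocytes of the blood that enter tissue at sites of inflammation. They leave the blood along gradients of chemokines read by CXCR1 and CXCR2 and of formylated bacterial peptides read by FPR1, and CSF3R carries the growth signal for their production in the marrow. S100A8 and S100A9 together form calprotectin, a calcium-binding and metal-binding protein that fills the neutrophil cytosol and is also made by stratified squamous epithelium, and S100A12 is a related calcium-binding protein. IL1B is an inflammatory cytokine of myeloid cells, and IL1RN is the antagonist that occupies its receptor without signalling. Semen commonly holds some leukocytes besides germ cells and shed epithelial cells.

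Levels are CPM, the count of a gene per 1000000 counts of its library. In sheep, the total behind each CPM leaves out 4 entries (LOC121818850, LOC121818849, LOC114112490 and LOC114112704) that held 22.4% to 85.2% of the counts of a sperm library. In units of 1000000 counts, library totals were 13.7 to 65.1 in sheep sperm, 46.7 to 72.4 in sheep brain, 13.7 to 65.1 in rat sperm, 50.5 to 60.3 in ovary and 38.2 to 119 in rat brain. In rat brains 1, 4 and 22, between 54.0% and 86.9% of counts lay in 3 ribosomal RNA entries, which lowers the CPM of every other gene there. Rat sperm libraries 7, 16 and 17 held 161 to 215 genes with exactly 1 count, against 1036 to 2005 in the other 12, so a 0 in those 3 libraries is less certain. The label of the sperm libraries was checked against 12 spermatid and sperm genes: their summed level was 83.3 CPM in sheep 688 and 689 to 6564 CPM in the other 4 sheep, against 26.4 to 94.8 CPM in sheep brain. The sperm library of sheep 688 thus lay within the brain range on this list. In rats the sum ran from 345 to 30274 CPM over the sperm libraries, against 3.88 to 74.8 CPM in brain, so rat sperm libraries also differed widely on it. In bulk libraries, fewer cells of a type and less RNA per cell cannot be told apart.

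In rat, the calgranulin genes S100a8 (chr2:178464095-178465223) and S100a9 (chr2:178487941-178490622) are neighbours on the GRCr8 build, as are the chemokine receptor genes Cxcr2 (chr9:83178645-83185017) and Cxcr1 (chr9:83216040-83220225). Il1b (chr3:137030200-137036581) and Il1rn (chr3:27509836-27525738) lie far apart on 1 chromosome. Csf3r is at chr5:143583126-143604382 and Fpr1 at chr1:67417991-67429813. The annotation places Il36b over part of Il1rn, and 2 genes with placeholder names over part of Fpr1, and the sources used here do not give how reads from overlapping or near-identical genes were assigned. Values of Il1rn, Fpr1 and the similar pair Cxcr1 and Cxcr2 are therefore uncertain. Promoters of 7 of the 8 rat genes were found in the RefSeq table for GRCr8, and 3 are shown because they belong to genes that differed in their pattern across the libraries below. Each runs from 250 bases before to 50 bases after the annotated start, on the gene's own strand. Capitals mark matches on either strand, none of which overlap. The letters searched were TATAAA, the core of a promoter box near many starts, TTGCNNAA, the pattern of the C/EBP factors, and GAGGAA, the core bound by PU.1.
S100a9 (chr2:178490573-178490872, minus strand): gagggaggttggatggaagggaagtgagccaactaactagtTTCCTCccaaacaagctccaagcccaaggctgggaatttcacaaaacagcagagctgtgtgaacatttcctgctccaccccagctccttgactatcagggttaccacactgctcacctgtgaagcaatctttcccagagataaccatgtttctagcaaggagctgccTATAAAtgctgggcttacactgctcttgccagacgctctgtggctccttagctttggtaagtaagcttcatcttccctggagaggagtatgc
Il1b (chr3:137036532-137036831, minus strand): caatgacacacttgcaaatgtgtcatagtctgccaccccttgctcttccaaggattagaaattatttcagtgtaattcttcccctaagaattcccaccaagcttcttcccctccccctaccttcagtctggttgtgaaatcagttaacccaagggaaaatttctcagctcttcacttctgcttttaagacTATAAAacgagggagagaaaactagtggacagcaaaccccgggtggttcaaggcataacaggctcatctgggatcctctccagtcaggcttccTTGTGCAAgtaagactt
Csf3r (chr5:143582970-143583269, plus strand): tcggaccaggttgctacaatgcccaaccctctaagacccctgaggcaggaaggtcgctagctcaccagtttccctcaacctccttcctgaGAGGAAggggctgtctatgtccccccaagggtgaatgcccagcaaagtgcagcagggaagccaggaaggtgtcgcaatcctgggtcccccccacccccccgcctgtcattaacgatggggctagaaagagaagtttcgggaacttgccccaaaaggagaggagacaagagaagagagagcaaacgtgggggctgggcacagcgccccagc
The S100a9 promoter held TATAAA starting 42 bases before the start and GAGGAA, on the opposite strand, at 209 bases before it. In Il1b, TATAAA stood 60 bases before the start and TTGCNNAA, on the opposite strand and so read here as TTGTGCAA, 34 bases after it. Csf3r had GAGGAA at 160 bases before the start and no TATAAA. The promoter of Il1rn had TATAAA on the opposite strand at 64 bases before the start and that of Fpr1 had GAGGAA at 152 bases before it, and none of these letters were in the windows of Cxcr1 and Cxcr2. The windows of Il1rn (chr3:27520072-27520371) and Fpr1 (chr1:67422471-67422770) lay far inside the gene spans given above. Their starts are thus internal and not at the outer end of the gene. Among 33469 rat promoters of this length, 14.2% held TATAAA, 10.6% TTGCNNAA and 27.6% GAGGAA. The NF-kappaB consensus, also searched, was in 7.51% of them and in none of the 7. These are matches of letters only.

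In sheep sperm, both calgranulin genes were high in each of the 5 libraries and near 0 in all 50 brain libraries. S100A8 stood at 3239 CPM in sheep 687, 17089 in 688, 10674 in 690, 4225 in 694 and 12413 in 699 (mean 9528 ± 5798, SD, n = 5). Sheep 688 was highest and 687 lowest, and the highest brain library reached 0.285 CPM. S100A9 stood at 7277 CPM in sheep 687, 34020 in 688, 28229 in 690, 15829 in 694 and 29536 in 699 (mean 22978 ± 11069, SD, n = 5). The order of the 5 animals, 688, 699, 690, 694 and 687, was that of S100A8, and the highest brain library had 0.259 CPM. The lowest sperm library of S100A8 lay 11355-fold above the highest brain library, and that of S100A9 28079-fold.

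The receptor genes were also present in every sheep sperm library, but 1 animal held most of the signal. CXCR2, a receptor for CXCL8 and related chemokines, stood at 116 CPM in sheep 687, 247 in 688, 161 in 690, 2502 in 694 and 20.0 in 699. Sheep 694 was 10.1-fold above the next library, and the mean of 609 ± 1061 CPM (SD, n = 5) became 136 without it. CSF3R, the receptor of granulocyte colony-stimulating factor, stood at 21.8 CPM in sheep 687, 106 in 688, 63.3 in 690, 1361 in 694 and 11.8 in 699. Its mean of 313 ± 587 CPM (SD, n = 5) became 50.7 without sheep 694, which was 12.8-fold above the next library. Neither gene overlapped with brain, where the highest library had 0.597 CPM of CXCR2 and 0.697 CPM of CSF3R.

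The interleukin 1 pair was also highest in sheep 694, then in 688 and 690. IL1B shared the whole order of the receptors, 694, 688, 690, 687 and 699, while IL1RN had sheep 699 slightly above 687. IL1RN, the antagonist, stood at 106 CPM in sheep 687, 707 in 688, 311 in 690, 3534 in 694 and 119 in 699 (mean 955 ± 1462, SD, n = 5, and 311 without sheep 694). All 5 libraries lay above the highest brain library, at 1.58 CPM. IL1B, the cytokine, stood at 9.01 CPM in sheep 687, 193 in 688, 46.0 in 690, 402 in 694 and 5.22 in 699 (mean 131 ± 170, SD, n = 5, and 63.3 without sheep 694). Brain libraries held 0.402 to 5.97 CPM of IL1B, so the sperm library of sheep 699 lay inside the brain range. On the fitted log2 scale (edgeR), sperm lay above the mean of the 10 regions by 19.30 ± 0.37 (SE) for S100A8, 19.41 ± 0.28 for S100A9, 13.17 ± 0.34 for CXCR2, 11.05 ± 0.30 for CSF3R, 11.96 ± 0.29 for IL1RN and 6.87 ± 0.26 for IL1B. Each SE, here and for other genes in sheep sperm, comes from a spread fitted over sperm and brain libraries together. It does not measure the spread of the 5 sperm libraries alone, which for CSF3R ran from 11.8 to 1361 CPM. Calls required an edgeR adjusted p under 0.05 and a change of 1 or more on the log2 scale, up or down. All 6 genes tested were called higher, where 33.1% of all 21859 genes tested were called higher and 41.1% lower. Of the 6, 5 did not overlap with brain, where 7.21% of genes lay wholly above it and 36.4% wholly below. The genes had been chosen on this comparison.

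**Figure D1:**
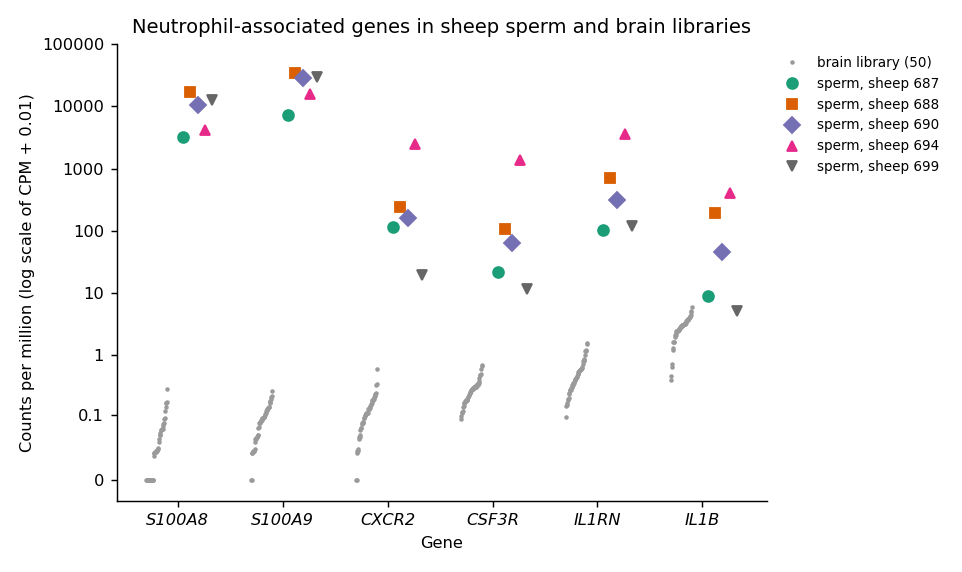
CPM of the 6 genes found in sheep (log scale of CPM + 0.01), with grey points for the 50 brain libraries in rising order and 1 symbol for each sperm library. S100A8 and S100A9 are highest in sheep 688 and the other 4 genes are highest in sheep 694. IL1B alone overlaps with brain, through sheep 699 at 5.22 CPM.

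Sheep 688 was thus the highest library for 2 of the 6 genes and sheep 694 for the other 4. Read as a ratio of counts, which does not depend on the library total, S100A8 per CSF3R was 148 in sheep 687 (95% exact binomial interval 130 to 171), 161 in 688 (156 to 166), 169 in 690 (153 to 186), 3.10 in 694 (3.05 to 3.16) and 1049 in 699 (887 to 1251). Sheep 687, 688 and 690 had overlapping intervals, and the ratio differed 338-fold between sheep 694 and 699. The intervals cover counting error only, since reads of a PCR library are not independent molecules. Within each of these sets of 2 and 4 genes the ratios ranged less. The sets were formed from these same values, by the library with the highest level, so a narrower range follows in part from the grouping. S100A8 per S100A9 ranged 1.88-fold over the 5 libraries, from 0.267 to 0.502. CXCR2 per CSF3R ranged from 1.69 to 5.30, IL1RN per CSF3R from 2.60 to 10.1 and IL1RN per IL1B from 3.66 to 22.8. Gene length was not known for sheep, so a ratio is read between libraries and not as which gene had more transcripts.

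Marker lists of other cells also differed between the 5 libraries. The list for stratified squamous epithelium, of which 11 of 12 genes were in the table, summed to 5828 CPM in sheep 687, 31417 in 688, 11603 in 690, 4258 in 694 and 17694 in 699, against at most 5.94 CPM in brain, and none of the 11 was at 0 over the group. It was highest in sheep 688 and then 699, as S100A8 and S100A9 were, but lowest in sheep 694 where they were lowest in 687. KRT13, a keratin of mucosal squamous epithelium, made up most of it. S100A8 counts per KRT13 count were 0.678 in sheep 687, 0.741 in 688, 1.25 in 690, 1.57 in 694 and 0.997 in 699, a 2.32-fold range. The list of 9 macrophage and monocyte genes in the table summed to 322 CPM in sheep 694 and 20.6 to 31.8 CPM in the other 4, with CD68 at 0 counts in all 5, and brain libraries held 20.7 to 378 CPM of it. Like CSF3R, this sum was highest in sheep 694. Of 8 macrophage and monocyte genes tested, 2 were called higher in sperm than brain (edgeR), ADGRE1 and MARCO. Lower were 4, namely CSF1R, C1QA, C1QB and C1QC, and 2 were not called. Of all genes tested, 33.1% were called higher and 41.1% lower. Erythroid genes summed to at most 1.09 CPM in sperm, and T cell genes to 1.88 to 8.00 CPM against 6.58 to 17.6 CPM in brain. B cell genes summed to 87.4 CPM in sheep 687, 38.5 in 688, 15.7 in 690, 75.7 in 694 and 139 in 699, against 0.335 to 21.4 CPM in brain. All 5 B cell genes were called higher in sperm (edgeR, median log2 fold change 5.78), and their sum was highest in sheep 699, the lowest library for CSF3R, CXCR2 and IL1B. The spermatid and sperm list summed to 6364 CPM in sheep 687, 83.3 in 688, 1392 in 690, 689 in 694 and 6564 in 699, so the 2 libraries richest in it were the lowest in CSF3R and IL1B. The part of these other cells in the levels of the neutrophil-associated genes was not tested.

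**Figure D2:**
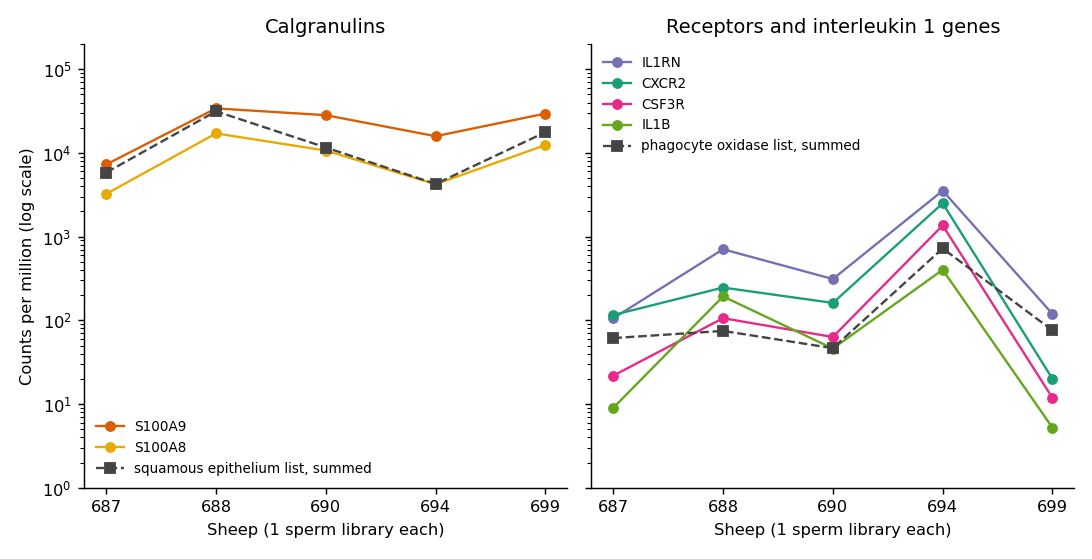
CPM (log scale) in the sperm library of each sheep, for S100A8 and S100A9 with the summed squamous epithelium list (left) and for IL1RN, CXCR2, CSF3R and IL1B with the summed phagocyte oxidase list (right). The left lines peak in sheep 688 and the right ones in sheep 694; lines join libraries for reading and imply no order.

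Other genes known in neutrophils, 64 in 6 roles, were read beside them, in lists chosen with earlier results of these data known. In sheep 56 were in the table and 42 passed the low-count filter. Of these, 35 were called higher in sperm than brain and 2 lower (edgeR, adjusted p below 0.05), with a median log2 fold change of 4.68 against -0.42 for all genes tested. Of all genes tested, 33.1% were called higher and 41.1% lower, and these shares also stand beside the counts by role below. Without sheep 694, 33 were called higher and 4 lower. Of the 28 that averaged 10 CPM or more in sheep sperm, 20 (71.4%) were highest in sheep 694, 7 (25.0%) in sheep 688 and 1 in sheep 690. Of all 5640 genes at that level, 25.7% were highest in sheep 694, 27.1% in 688, 2.34% in 690, 18.6% in 687 and 26.3% in 699.

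By role, the phagocyte oxidase genes, whose products make the respiratory burst, were called higher for 5 of 5 tested. Their sum was 61.4 CPM in sheep 687, 74.8 in 688, 46.5 in 690, 723 in 694 and 75.8 in 699. NCF1 (mean 87.5 ± 160 CPM, SD, n = 5), NCF4 (40.5 ± 52.6) and CYBB (32.5 ± 42.6) led the list, and all 4 oxidase genes above 10 CPM were highest in sheep 694. Surface receptors and adhesion genes were called higher for 10 of 12 tested and lower for 1, ITGAM, the alpha chain of Mac-1. PLAUR, the urokinase receptor, stood at 526 ± 472 CPM, C5AR1, the receptor of complement fragment C5a, at 334 ± 622, and the adhesion molecule CEACAM1 at 304 ± 267 (SD, n = 5). Of 10 receptor genes above 10 CPM, 8 were highest in sheep 694, while CEACAM1 and PLAUR were highest in sheep 688. ITGAM is a surface chain of both neutrophils and macrophages, and the macrophage and monocyte list summed to 20.7 to 378 CPM in brain. In sperm ITGAM was lower than in brain by 2.32 ± 0.48 (SE, edgeR adjusted p = 2.0e-05) on the log2 scale. This difference is relative to brain and does not say that its level in sperm was low.

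Granule genes had the lowest median of the 6 roles, a log2 fold change of 1.77, with 7 of 9 tested called higher. CHI3L1, a secreted chitinase-like glycoprotein, stood at 56.3 ± 57.8 CPM, ARG1, arginase, at 47.7 ± 54.0 and CD177, a surface glycoprotein of neutrophils, at 41.2 ± 47.9 (SD, n = 5). CD177 had 0 counts in all 50 brain libraries and missed the low-count filter through sheep 687. Some granule genes, picked out here after their values were seen, were low in sperm: MPO, myeloperoxidase, reached at most 2.61 CPM in any library, the elastase ELANE 1.62, the collagenase MMP8 0.684, BPI, which binds bacterial lipopolysaccharide, 0.522 and the protease PRTN3 0.310. MPO was nevertheless among the 7 called higher (log2 fold change 4.34 ± 0.61, SE), ELANE did not pass, and the other 3 were below the low-count filter. Of the 7 chemokines and growth factors in the table, 3 passed the low-count filter and all 3 were called higher. The 7 summed to at most 1.44 CPM in brain, so the filter favoured genes high in sperm. The 3 of 3 is therefore not read as a result. CSF3, the ligand of CSF3R, stood at 154 ± 68.8 CPM, and the CXCR2 ligands CXCL8 and CXCL1 at 139 ± 139 and 133 ± 145 CPM (SD, n = 5), while TNF had 0 counts in all 5 libraries. In the interleukin 1 system 6 of 8 tested were called higher, among them the decoy receptor IL1R2 (47.4 ± 45.8 CPM), the signalling receptor IL1R1 (35.7 ± 43.4) and IL1A (26.8 ± 26.0). Of the myeloid transcription factors 4 of 5 tested were called higher, with SPI1, which encodes PU.1, at 116 ± 207 CPM, CEBPB at 111 ± 168 and CEBPD at 56.3 ± 52.4, and CEBPA was called lower.

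Across all 55 sheep libraries, the genes most like the mean log2(CPM + 1) of the 6 were CXCL8 (Pearson r = 0.994), CSF3 (0.990), SLAMF6 (0.989), PLAUR (0.989) and STX11 (0.989), out of 4813 genes compared, all of 10 CPM or more on average in sperm. All 55 points share 2 tissues, so the likeness is mostly that of presence in sperm and near absence in brain.

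In rats, group means of the 8 genes were at most 6.05 CPM in sperm and, apart from IL1RN at 16.2 CPM, at most 3.12 CPM in ovary. S100A8 ranged from 0.286 to 11.1 CPM over 15 sperm libraries (median 2.38, mean 3.00 ± 2.97, SD) and from 0.124 to 2.69 CPM in male brain (median 0.439). The groups overlapped. S100A9 ranged from 0.334 to 20.6 CPM in sperm (median 3.18, mean 6.05 ± 6.21) and from 0.142 to 4.06 CPM in male brain (median 0.456), and these groups overlapped too. The highest brain value of both genes was in rat 5, whose brain held 2.69 CPM of S100A8 and 4.06 CPM of S100A9. In ovary S100A8 ranged from 0.314 to 4.38 CPM (median 0.755) and S100A9 from 1.80 to 7.60 CPM (median 2.54), against 0.0587 to 0.659 and 0.0755 to 0.905 CPM in female brain. Every ovary lay above every female brain for S100A9, and rat 21 was highest for both genes.

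CSF3R overlapped among all 4 rat groups. It ranged from 0.493 to 18.5 CPM in sperm (median 2.37), 0.383 to 5.76 in male brain (median 4.41), 1.48 to 5.33 in ovary (median 2.29) and 0.218 to 4.66 in female brain (median 3.49). The lowest brain values were in rats 4 and 1, the brains with most ribosomal counts. CXCR2 was at most 1.07 CPM in sperm (rat 10) and 0.483 CPM in ovary (rat 21), against at most 0.0952 CPM in brain. It had 0 counts in sperm libraries 7, 16 and 17 only.

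CXCR1 and FPR1, the other chemoattractant receptors among the listed genes, had lower means in the rat reproductive tissues than in brain. CXCR1 had 0 counts in all 15 sperm libraries and 0.255 to 2.92 CPM in every male brain (median 1.07), so that its mean was at least 301-fold lower in sperm, taking a floor of 3 counts over the group (0.00407 CPM). In ovary it ranged from 0 to 0.343 CPM (mean 0.0966 ± 0.111, SD, n = 14), with 2 libraries at 0, against 0.0336 to 2.15 CPM in female brain. FPR1 had 0 counts in 11 of 15 sperm libraries and 10 of 14 ovaries, with 10 and 9 counts in all, and its mean in brain was 0.409 ± 0.240 CPM in males and 0.353 ± 0.175 in females (SD). The sperm-to-brain ratio of means was 0.0325 and the ovary-to-brain ratio 0.0319.

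Of the 8 rat genes, IL1B alone lay wholly above brain in both sperm and ovary. It ranged from 0.668 to 10.9 CPM in sperm (median 2.42) and from 0.0196 to 0.662 CPM in male brain (median 0.256), with no overlap, although the lowest sperm library was only 1.01-fold above the highest brain. In ovary it ranged from 1.08 to 2.67 CPM (median 1.39) and in female brain from 0.0336 to 0.264 CPM (median 0.202), 4.08-fold apart at the closest. IL1RN ranged from 0 to 18.2 CPM in sperm (median 3.90, with the 0 in rat 16) and from 0.128 to 1.22 CPM in male brain (median 0.812). In ovary IL1RN ranged from 3.35 to 71.4 CPM (median 10.1, mean 16.2 ± 17.7, SD, n = 14), all above the 0.101 to 1.64 CPM of female brain, and rat 22 stood highest. Counts of IL1RN per IL1B had a median of 1.71 over the sperm libraries and 7.00 over the ovaries.

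Fitted log2 differences in rat sperm were 2.56 for S100A8, 2.91 for S100A9, 4.33 for IL1B, 2.99 for IL1RN and 0.24 ± 0.32 (SE) for CSF3R. The CSF3R difference became -0.14 without rats 16 and 17 and -0.25 with the rat as a block. For ovary they were 1.26 for S100A8, 2.47 for S100A9, 2.89 for IL1B, 4.00 for IL1RN, -0.75 ± 0.16 for CSF3R and -3.60 for CXCR1. In each comparison 6 of 8 genes passed the low-count filter, which CXCR2 and FPR1 did not, and 4 were called higher and 1, CXCR1, lower. Over all genes, 27.7% were called higher in sperm and 31.5% lower, and 27.7% higher in ovary and 29.2% lower. Of the 8 genes, 1 lay wholly above brain in sperm (7.84% of all genes did) and 1 wholly below it (8.66%), and in ovary 3 lay wholly above it (27.7%) and 0 wholly below (6.46%). These counts describe the comparisons on which the genes were chosen.

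**Figure D3:**
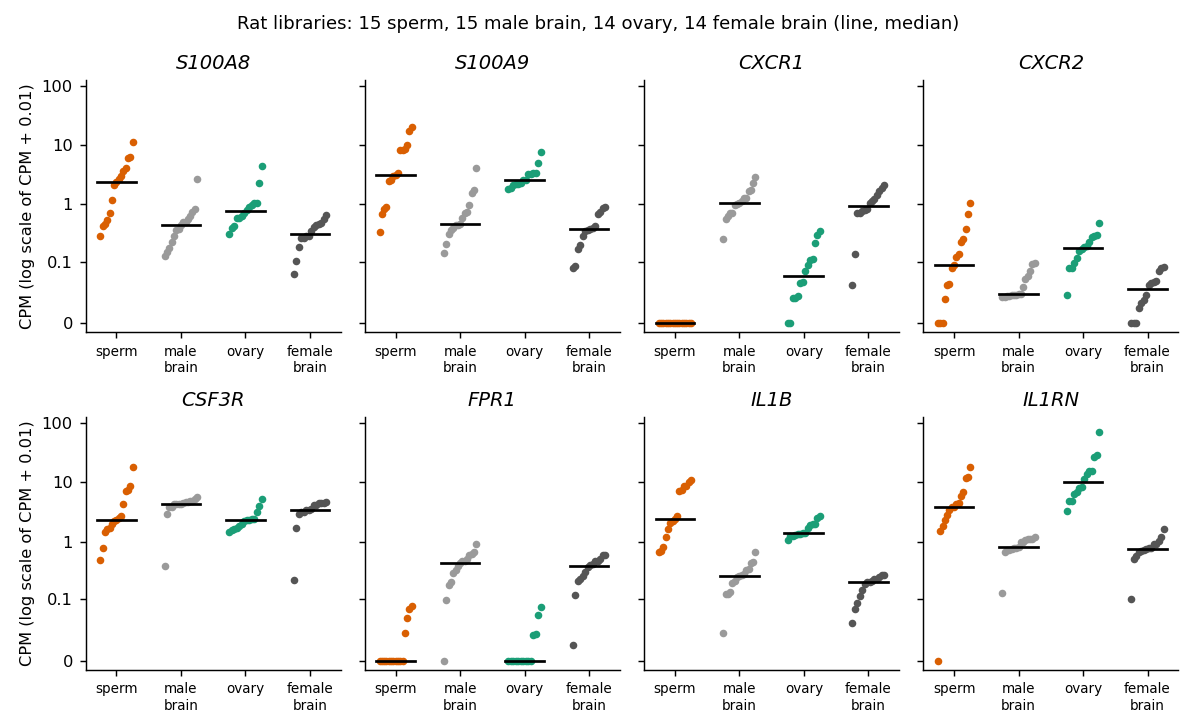
CPM of the 8 genes found in rat (log scale of CPM + 0.01), with 1 point for each library in rising order and a line at the median. CXCR1 is at 0 in all 15 sperm libraries, IL1B in sperm and ovary lies above brain of the same sex, and CSF3R overlaps in all 4 groups.

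Some rat sperm libraries were among the highest for several of these genes. The share of all genes for which the same libraries were highest was not counted, so this is a description only. Rat 8 was among the 4 highest sperm libraries for 7 of the 7 genes detected there, rat 3 for 6, and rats 10 and 17 for 5 each. One of the 7 is FPR1, with 0 counts in 11 of 15 libraries and 10 counts in all, so its order rests on few reads. Rat 9 had the lowest level of S100A8, S100A9, CSF3R and IL1B. S100A8 counts per CSF3R count ranged 14.4-fold over the 15 sperm libraries, from 0.176 to 2.55, and 4.80-fold over the 14 ovaries.

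Other neutrophil genes in rat sperm were called higher for 24 of 42 tested and lower for 6, with a median log2 fold change of 1.45 against -0.03 for all genes. Of all genes tested, 27.7% were called higher and 31.5% lower. The oxidase genes were called higher for 6 of 6, with CYBB at 33.0 ± 26.1 CPM, RAC2 at 22.3 ± 17.0 and NCF1 at 20.0 ± 15.8 (SD, n = 15). Receptor and adhesion genes were called higher for 9 of 14 and lower for 1. ITGB2, the beta chain of the leukocyte integrins, stood at 32.9 ± 27.4 CPM and was called higher, as was TLR2, a receptor of bacterial lipoproteins, at 22.9 ± 13.3 CPM. ITGAM stood at 14.4 ± 13.9 CPM and differed by 0.70 ± 0.33 (SE) on the log2 scale, which did not pass (edgeR adjusted p = 0.058). Of 10 granule genes tested 4 were called higher and 4 lower, which does not set this role apart from all genes. LTF, lactoferrin, ranged from 2.21 to 1928 CPM in sperm (median 276), LCN2, an iron-siderophore binding lipocalin, averaged 36.5 ± 18.2 CPM, and BPI averaged 19.6 ± 45.6 CPM. LTF is also a secretion of epithelium of the male tract. Among the rest, CSF3 (3.66 ± 1.87 CPM) and IL1A (4.53 ± 5.47 CPM) were called higher, while IL1R1 (4.70 ± 2.66 CPM, log2 fold change -0.30) did not pass. CEBPB, at 26.5 ± 11.8 CPM, was called higher, and CEBPA, at 8.52 ± 3.62 CPM with a log2 fold change of 0.01, did not pass.

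In ovary 30 of 45 were called higher and 7 lower, with a median log2 fold change of 2.16 against 0.02 for all genes. Of all genes tested there, 27.7% were called higher and 29.2% lower. CEBPB, which also serves luteinization in the ovary, averaged 186 ± 49.2 CPM there against 7.35 ± 2.75 CPM in female brain. CYBB averaged 43.8 ± 17.1 CPM in ovary against 2.01 ± 0.771 CPM in female brain. Macrophage and monocyte genes, 10 of 10 in the table, summed to 282 to 695 CPM in ovary, 39.5 to 296 in rat sperm and 9.40 to 276 in rat brain. In ovary 1 of them, MARCO, was at 0. B cell genes summed to 20.0 to 61.4 CPM in ovary and 2.55 to 54.1 CPM in sperm, against at most 3.98 CPM in brain. The squamous list summed to 13.7 to 181 CPM in rat sperm with KRT6A, CRNN and SPRR3 at 0. The part of these cells in the rat levels was not tested.

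Rat genes most like the mean of the 8 over all 58 libraries were ARHGAP9 (Pearson r = 0.865), NAPSA (0.857), PTPRC, the pan-leukocyte antigen CD45 (0.848), FGR (0.846) and MYO1G (0.835), out of 13220 genes compared. The points fall into 3 tissues.

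Haemoglobin transcripts, from 8 rat genes, gave a measure of blood RNA in each library. They summed to a median of 29941 CPM in rat sperm, 4711 in ovary, 1328 in male brain and 1424 in female brain. Over the 15 sperm libraries, 3 of the 7 detected genes rose with haemoglobin on log2(CPM + 1) by permutation tests (two-sided, 100000 resamples, adjusted over the 7). For S100A9, Pearson r was 0.81 (adjusted p = 0.0027) and Spearman rho 0.76 (adjusted p = 0.0067). IL1B gave r = 0.80 and rho = 0.74, and S100A8 r = 0.72 and rho = 0.73. Without the 2 libraries farthest from the median of haemoglobin, r was 0.72, 0.71 and 0.60. CSF3R gave r = 0.59 with a permutation p adjusted to 0.036, and rho = 0.55 with one of 0.063. Leaving out libraries 7, 16 and 17 raised the number of genes past both tests to 6 of 7, all but CSF3R, with r = 0.84 for IL1RN. A CPM of either gene and of haemoglobin shares the library total, and haemoglobin marks only that blood RNA was present. The share of all genes that would pass these tests was not counted, in sperm or in the ovary and brain below. The counts of genes passing therefore do not set these genes apart from others.

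**Figure D4:**
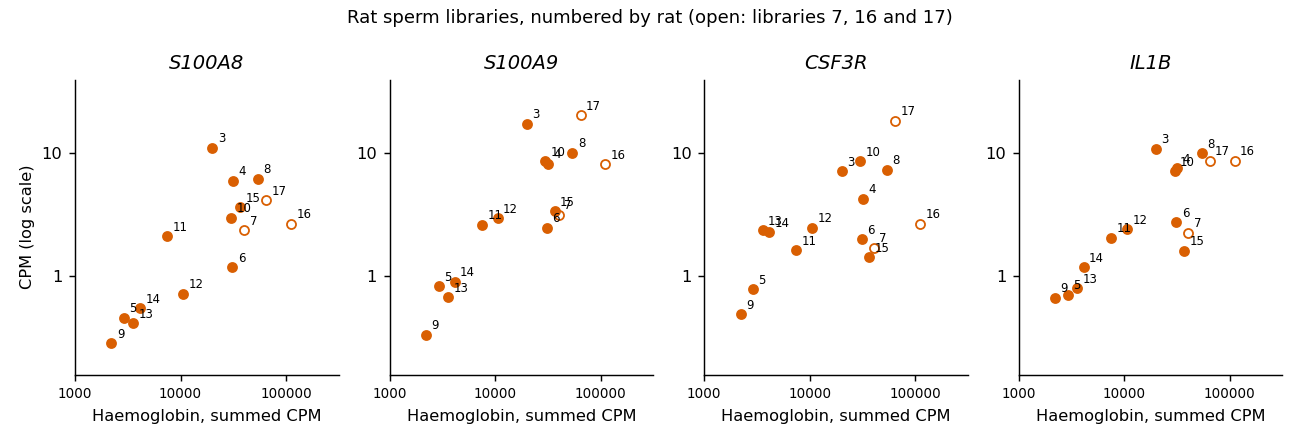
CPM of S100A8, S100A9, CSF3R and IL1B against the summed CPM of 8 haemoglobin genes in the 15 rat sperm libraries (both axes on a log scale), numbered by rat, with open symbols for libraries 7, 16 and 17. Rat 9 is lowest on both axes in each panel, and rat 16 has the most haemoglobin without the highest level of any of the 4 genes.

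In ovary no gene passed either permutation test (8 relations; the highest was IL1RN, r = 0.42, adjusted p = 0.84). In brain IL1B passed both over the 29 libraries (r = 0.56, rho = 0.53, adjusted permutation p = 0.0079 and 0.027), but r was 0.37 without the 2 libraries farthest from the median. Without the brains rich in ribosomal counts, of rats 1, 4 and 22, r was 0.39 and rho 0.43 over 26 libraries, and neither passed (adjusted permutation p = 0.20 and 0.11). Within the sexes r was 0.63 in 15 males and 0.61 in 14 females, and neither passed both permutation tests. CSF3R (r = 0.77, adjusted permutation p = 0.0032), IL1RN (r = 0.61, 0.0062) and FPR1 (r = 0.48, 0.017) passed by Pearson's r but not by rho, which was 0.33, 0.15 and 0.17. Without the 2 farthest libraries their r was 0.17, 0.010 and 0.058, so these 3 rest on those libraries. Between organs of animals with the same number, no gene passed both tests, in 7 relations of sperm with brain and 8 of ovary with brain. S100A9 in ovary and brain had rho = 0.72 (adjusted permutation p = 0.034) with r = 0.55 (adjusted p = 0.30), and r was 0.30 without the 2 farthest libraries.

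Among sheep brain regions, 3 of the 4 genes that passed the low-count filter differed (edgeR F test over the 10 regions, 50 libraries). For comparison, 76.7% of all genes tested did. IL1B (adjusted p = 1.7e-07) was highest in pons, at 4.18 ± 0.658 CPM, and lowest in cerebellum, at 0.694 ± 0.320 CPM (SD, n = 5). The 5 pons libraries ranged from 3.61 to 5.20 CPM and the 5 cerebellum libraries from 0.402 to 1.21 CPM, without overlap. The other 8 regions had means of 2.55 (motor cortex) to 3.70 CPM (entorhinal cortex), within the spread of their neighbours in this order. IL1RN (adjusted p = 0.00062) was also highest in pons, at 1.16 ± 0.454 CPM, followed by entorhinal cortex at 0.750 ± 0.445, and lowest in motor cortex, at 0.284 ± 0.129, and cerebellum, at 0.286 ± 0.147. Pons libraries of IL1RN ranged from 0.460 to 1.58 CPM and overlapped with both. CSF3R (adjusted p = 0.0011) had its highest mean in basal ganglia, at 0.400 ± 0.115 CPM, and its lowest in cerebellum, at 0.138 ± 0.0495 CPM. Basal ganglia ranged from 0.311 to 0.601 CPM and cerebellum from 0.0971 to 0.221 CPM, without overlap. CXCR2 did not pass (adjusted p = 0.27), with means of 0.0599 CPM in cerebellum to 0.232 in visual cortex. S100A8 and S100A9 were filtered out, since their regional means were at most 0.0957 and 0.142 CPM, both in pons.

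**Figure D5:**
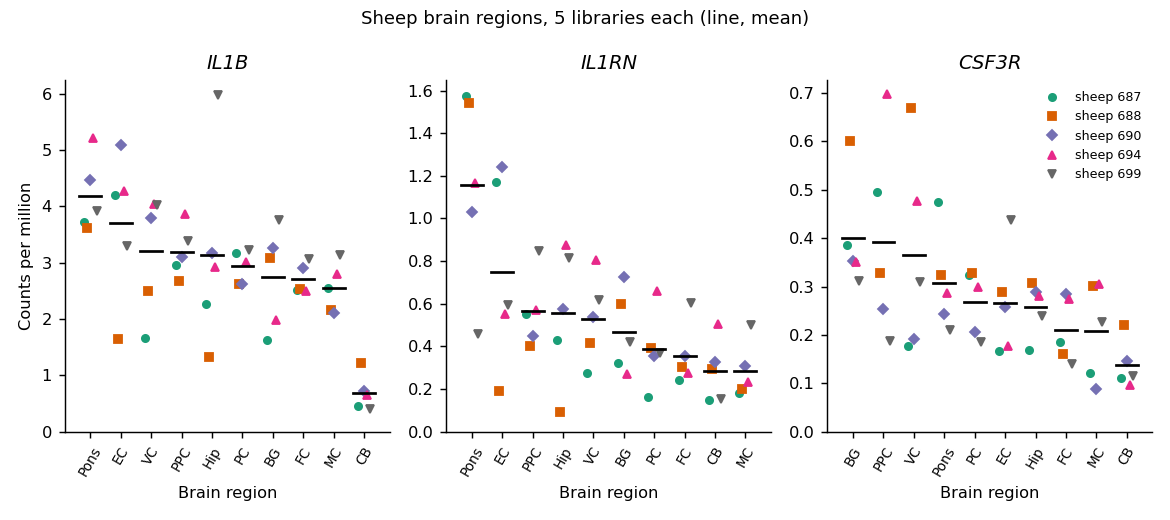
CPM of IL1B, IL1RN and CSF3R in the 10 sheep brain regions, ordered by mean (line), with 1 symbol for each of the 5 sheep. Cerebellum is lowest for IL1B and CSF3R, and pons is highest for IL1B and IL1RN.

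Between male and female rat brain, 7 genes were tested and 0 passed in edgeR, 0 at an unadjusted p below 0.05, and 0 in DESeq2. The largest difference was that of S100A9, by 0.72 ± 0.40 on the log2 scale (male minus female, with its SE; edgeR adjusted p = 0.56), and rat 5 holds its highest male value. Over all genes, 0.18% of 20570 passed.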

How the data were processed

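The members and gene lists were chosen with earlier results of these data known. The authors deposited raw counts by gene and library, neither normalized nor pooled; per the labels, reads were trimmed with Trimmomatic 0.39, aligned with STAR 2.7.5a to ARS-UI_Ramb_v3.0 (sheep) or GRCr8 (rat) and counted with Rsubread 2.20.0. RNA extraction and library kits differed between species, so levels were not compared between them. Counts were tested with edgeR 4.0.16 (quasi-likelihood, TMM, filterByExpr by group, prior count 0.125) in R 4.3.3, on full library totals, with Benjamini-Hochberg adjustment over all genes tested. Alternatives were other scalings, no filter, DESeq2 1.42.0, an animal block and libraries left out. The edgeR code was tested on simulated counts. Of each list the 3 genes with the highest mean in sheep and in rat sperm are named, with up to 3 at 0 counts. CPM has an SD over libraries.

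Sheep brain and sperm libraries are paired by animal, per the labels. Deviations from the group means of the same sheep correlated above 0.1 in 177 of 225 pairs of regions (median r = 0.21) and in 1 of 50 pairs of sperm with a region. Rat numbers recur across organs, and that they mark 1 animal is not stated. Separate animals are the replicates. The main fits had no animal term and took libraries of the same sheep as independent. Their p-values in sheep therefore mix the spread within and between animals, and the animal block was run only as an alternative.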

Additional observations from a re-analysis of the deposited data

Results flagged for a closer look

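In 7 of 66 groups of 5 sheep libraries tested (a gene in a region or in sperm), 1 library stood apart: its gap to the nearest of the others exceeded 0.710 of the group's range (Dixon's 95% value). Chance flags about 1 group in 20. In sperm, sheep 694 stood apart for CXCR2, at 2502 CPM against 20.0 to 247 in the others, for CSF3R, at 1361 CPM against 11.8 to 106, and for IL1RN, at 3534 CPM against 106 to 707. In the basal ganglia, sheep 688 stood apart for S100A8, at 0.164 CPM against 0 to 0.0444, and for CSF3R, at 0.601 CPM against 0.311 to 0.385. In the hippocampus, sheep 688 stood apart for S100A9, at 0.0943 CPM against 0.0180 to 0.0369, and sheep 694 for CXCR2, at 0.343 CPM against 0.0707 to 0.129. The brain values rest on few counts each.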

How the results depend on the processing

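Calls of the neutrophil lists and of the tested genes kept their side of the threshold under most alternatives: 98 of 108 summary values stayed within 1.5 times or on the same side, and 405 of 431 values of single genes did. The main counts of genes called were 16215 (sheep sperm), 12111 (rat sperm), 11832 (ovary), 16224 (regions) and 37 (sexes). Without the low-count filter rat sperm gave 22067 and ovary 18799, with more genes tested; DESeq2 gave 18371 in rat sperm and 153 between the sexes, and the cause was not tested. With the animal as a block the counts were 16268, 11925 (4384 higher and 7541 lower, against 5663 and 6448), 11837 and 17408; the block changed no call of CXCR2, CSF3R, IL1B or IL1RN among regions. Upper quartile scaling turned the sheep sperm split from 7239 higher and 8976 lower to 8907 and 6980 (DESeq2 9913 and 8118), and moved the median log2 fold change of all genes from -0.42 to 0.31; of the other neutrophil genes, 37 were then higher and 2 lower. In rat sperm the split without the filter was 12974 higher and 9093 lower. Leaving out 1 sheep at a time gave 15940 to 16329 genes in sperm and 14132 to 15322 among regions, and 2 to 4 other neutrophil genes called lower in sperm, the 4 without sheep 694. On TMM-scaled CPM the sheep sperm mean of S100A8 was 20200 and of S100A9 46562, and on the whole library total 4689 and 10839.

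The number of genes correlated with haemoglobin in brain, 1, became 0 in males alone, in females alone, on the total outside the ribosomal entries, and without brains 1, 4 and 22; in sperm it went from 3 to 6 without libraries 7, 16 and 17. With the total outside those entries, r in brain turned to -0.0097 for S100A9, -0.46 for CXCR1 and -0.24 for CXCR2, and without the 3 brains to -0.45 for CXCR1 (rho -0.57, adjusted permutation p = 0.023) and -0.037 for CXCR2. Between organs, r turned to 0.011 for CXCR2 in sperm and brain with log2(CPM + 0.1), and in ovary and brain, on the total outside those entries, to -0.038 for CXCR1, 0.12 for CSF3R and 0.14 for IL1RN. The CXCR1 difference between the sexes turned to -0.033 without the 3 brains. None of the main values that were reversed had passed its test. After reversal, CXCR1 without the 3 brains passed by rho but not by r. The cause was not tested. Depth limits S100A8, S100A9 and CXCR2 in sheep brain, and CXCR2 and FPR1 in rat, which rest on few counts.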
